A study of Mus musculus with 9 samples.

Results

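Basal cells of the mouse mammary gland that were sorted as Lgr5+ were compared with basal cells sorted as Lgr5-, gene by gene, on 3 arrays of each. The arrays were chosen by their labelled population, which left 6 of the 9 arrays of the series in the comparison, and the Lgr5+ and Lgr5- arrays that carry the same pool number were paired. Lgr5+ basal, Lgr5- basal and luminal cells all came from 10-week-old virgin C57BL/6 mice carrying the Lgr5-GFP-IRES-CreERT2 allele, in which GFP is made under the control of the Lgr5 locus, so the Lgr5- cells carry the reporter allele too and are not wild-type cells. The 3 luminal arrays took part in the normalization and are quoted for levels alone. How the cells were stained and gated, and how many mice made up a pool, is not stated in the labels. With arrays paired by pool, p-values here set a difference between Lgr5+ and Lgr5- arrays against its variation from pool to pool. The test, limma, draws that variation toward a value shared by all genes. The shared value counts for 2.86 degrees of freedom, beside 2 from the gene itself. For genes with very similar pools the SE therefore rests largely on the shared value.

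The basal layer of the mammary gland surrounds the inner, luminal layer and holds contractile myoepithelial cells, which press milk out of the gland, together with cells that can regrow a gland after transplantation. Lgr5 is a receptor for R-spondins, secreted proteins that keep Wnt receptors at the cell surface, and in the intestine it marks stem cells that depend on Wnt. In the mammary gland Lgr5 is found in part of the basal layer. The comparison asks which genes set the Lgr5-expressing part apart from the rest of that layer.

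Signal was measured as fluorescence intensity of 45281 probes, corrected for background, quantile normalized and put on a log2 scale, so that a difference of 1 is a 2-fold change. A probe was detected when its detection p was under 0.01, and 15235 to 16755 probes were detected on the Lgr5+ arrays, against 16057 to 17423 on the Lgr5- arrays. The 11504 genes with a probe detected on at least 3 of the 6 basal arrays were tested. Genes detected in 1 group alone could enter the test through that group, as did 5 of the higher and 7 of the lower genes below, so counts over a list are given as descriptions. The Lgr5+ and Lgr5- arrays of a pool correlated across genes with r = 0.961 in pool 1, 0.974 in pool 2 and 0.988 in pool 3. Pools 1 and 2 lay on the same BeadChip and pool 3 on another, and no library went against its label. As in any bulk sample, fewer cells that express a gene and less RNA of it per cell cannot be told apart.

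Of the 11504 genes, 97 passed the test (limma, pool as a block, adjusted p under 0.05), which is 0.843%. There were 43 genes higher in Lgr5+ basal cells (0.374%), led by Tspan8, Sfrp1, Ptprd, Lrrtm1 and Gli2, and 54 lower (0.469%), led by Lamp5, Esm1, Col9a1, Tex36 and Spock3. The change was at least 2-fold for 39 of the higher and 45 of the lower genes, and the smallest was 0.895 on the log2 scale. All 97 had the same sign in all 3 pools, as had 5636 of all genes. For 93 of the 97 the Lgr5+ and Lgr5- values did not overlap, against 2501 of all genes (21.7%), and the other 4, among them Ramp1, Gpx2 and Ccdc115, were lower within every pool while their levels varied more between pools. The median difference over all genes was 0.02, with 6176 above 0.

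These calls rest on few arrays. The adjusted p of the 97 ran only from 0.0277 to 0.0491, with 2 residual degrees of freedom, and 2630 genes had an unadjusted p under 0.05. Without pool 1 the same limma fit passed 0 genes (1415 at an unadjusted p under 0.05), without pool 2 it passed 0 (1364 at an unadjusted p under 0.05), and without pool 3 it passed 826, among them all 97. Just inside the threshold lay Medag (adjusted p = 0.0491), and just outside it lay Tmod2 (0.0507), Col23a1 (0.0513) and Tppp3 (0.0513). Without pool as a block 99 genes passed, of which 56 were among the 97, and the adjusted p of that fit is given beside genes that it did not pass. Sizes depend on the background correction: without it 92 of the 97 still passed, but 61 had log2 differences more than 1.5 times smaller.

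**Figure D1:**
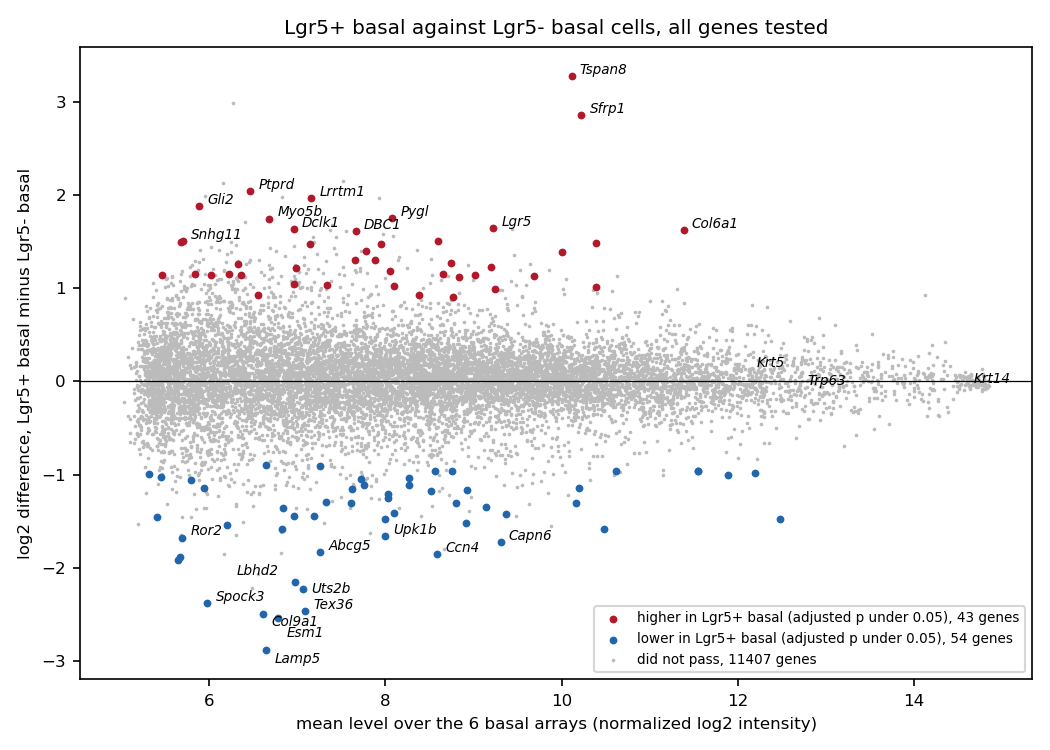
The log2 difference of each tested gene (vertical axis, Lgr5+ basal minus Lgr5- basal) against its mean normalized log2 intensity over the 6 basal arrays (horizontal axis). Red points are the 43 genes that passed the test as higher in Lgr5+ cells, blue points the 54 that passed as lower and grey points the rest; Tspan8 and Sfrp1 stand above all other genes of like level, while Krt5, Krt14 and Trp63 lie near 0.

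Lgr5, the gene whose reporter was used for the sort, checks the labels. Its level was 9.74, 9.79 and 10.62 on the Lgr5+ arrays of pools 1, 2 and 3, against 8.20, 8.10 and 8.90 on the Lgr5- arrays. Every Lgr5+ array lay above every Lgr5- array, with the highest level of both groups in pool 3, and the log2 difference was 1.65 (SE 0.105, limma adjusted p = 0.0279, and 0.0653 without pool as a block). Lgr5 was detected on all 3 Lgr5- arrays and on none of the luminal ones, so the Lgr5- sort held Lgr5 RNA. Tspan8, a tetraspanin of the cell membrane, had 11.76, 11.52 and 11.98 on the Lgr5+ arrays, against 8.22, 8.32 and 8.87 on the Lgr5- arrays. The groups lay far apart, 9.72-fold on average (log2 difference 3.28, SE 0.130, limma adjusted p = 0.0277), with a lesser spread within each group. Tspan8 and Lgr5 lie beside each other on mouse chromosome 10, with 1 protein-coding gene between them in the RefSeq annotation, A930009A15Rik, which was not among the genes tested here. Upk1b, a uroplakin and the other of 20 tested tetraspanins that passed, fell, with 7.43, 7.32 and 6.73 on the Lgr5+ arrays, against 8.95, 9.11 and 8.41 on the Lgr5- arrays (log2 difference -1.66, SE 0.111, adjusted p = 0.0279). Tspan17 had a log2 difference of 1.14 and did not pass (adjusted p = 0.062).

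Among the Wnt genes, 2 secreted antagonists rose with the receptor Lgr5, while 1 ligand, 1 further receptor and 2 target and feedback genes fell. Sfrp1, which binds Wnt proteins outside the cell, had 11.68, 11.35 and 11.94 on the Lgr5+ arrays, against 8.48, 8.83 and 9.08 on the Lgr5- arrays. That is 7.25-fold higher (log2 difference 2.86, SE 0.160, limma adjusted p = 0.0279), and none of the luminal arrays detected it. Another Sfrp1 probe gave a difference of 2.62. Sfrp2, of the same family, had 8.28, 8.10 and 9.07 on the Lgr5+ arrays, against 6.94, 6.66 and 7.64 on the Lgr5- arrays, a rise of 1.403 in log2 (SE 0.102, adjusted p = 0.0279, and 0.12 without pool as a block). As for Lgr5, pool 3 was the highest in both groups while the difference within pools stayed between 1.34 and 1.44. The list of secreted antagonists had 17 genes, of which 9 were tested, 2 were higher and 0 lower, and its median difference was -0.07 beside 0.02 for all genes. Dkk3 had a difference of 0.80 (adjusted p = 0.0664) and Igfbp4, a binding protein of insulin-like growth factors that also dampens Wnt signalling, of -0.99 (adjusted p = 0.0543), and neither passed.

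Of 24 R-spondin and Wnt receptor genes, 16 were tested, with 1 higher (Lgr5, whose reporter was used for the sort), 1 lower (Ror2) and a median of -0.05. Ror2, a receptor tyrosine kinase for Wnt5a, was detected on all Lgr5- arrays and on no Lgr5+ array, at 6.65, 6.69 and 6.25 on the Lgr5- arrays. It was at least 2.15-fold lower in Lgr5+ cells, where the bound sets the Lgr5+ arrays at the lowest level that any detected probe reached on the same array (adjusted p = 0.0279). Such bounds, here and below, hold for background-corrected values alone and allow for no error in the mean of the other group. Without that correction the log2 difference of Ror2 was -0.46, against -1.68 with it. Fzd7, a frizzled receptor, was at 11.78, 11.76 and 12.71 on the Lgr5+ arrays, against 11.47, 11.73 and 12.59 on the Lgr5- arrays, and did not pass (log2 difference 0.15, adjusted p = 0.452). Lgr4, which like Lgr5 binds R-spondins, was detected on too few arrays for a test, and Lgr6 had a difference of -0.20 (adjusted p = 0.32).

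Among the 7 tested of 19 Wnt ligands, 1 fell and none rose (median -0.11). Wnt6 had 7.04, 7.44 and 6.39 on the Lgr5+ arrays, against 8.58, 8.60 and 7.60 on the Lgr5- arrays, a fall of 1.31 in log2 (SE 0.125, adjusted p = 0.0385, and 0.153 without pool as a block). Its groups did not overlap, and both were lowest in pool 3. Another Wnt6 probe gave -1.30. Wnt10a, at 0.47 (adjusted p = 0.126), and Wnt11, at 1.02 (adjusted p = 0.173), did not pass.

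Of 24 Wnt target and feedback genes, 16 were tested, with 1 higher (again Lgr5, the gene of the sort), 2 lower (Nkd2 and Tnfrsf19) and a median of -0.23. Nkd2, an inhibitor of Dishevelled, had 8.21, 8.53 and 8.06 on the Lgr5+ arrays, against 9.27, 9.49 and 8.94 on the Lgr5- arrays (log2 difference -0.97, SE 0.105, adjusted p = 0.0457, and 0.088 without pool as a block). Tnfrsf19, a TNF receptor family member known as Troy that is found with Lgr5 in intestinal stem cells, was detected on every Lgr5- array, at 5.94, 6.31 and 6.15, and on no Lgr5+ array. It was at least 1.63-fold lower in Lgr5+ cells (adjusted p = 0.0279). Ccn4, a secreted matrix protein first known as a Wnt1-induced gene, was at 7.46, 7.57 and 7.95 on the Lgr5+ arrays, against 9.47, 9.30 and 9.77 on the Lgr5- arrays, 3.61-fold lower (log2 difference -1.85, SE 0.113, adjusted p = 0.0279). Axin2, the feedback gene most often read as a measure of Wnt signalling, was at 8.52, 8.51 and 8.60 on the Lgr5+ arrays, against 8.65, 8.56 and 8.41 on the Lgr5- arrays. Its groups overlapped and the difference was 0.00 (SE 0.118, adjusted p = 0.985). Myc had a difference of -0.89 and did not pass (adjusted p = 0.126).

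**Figure D2:**
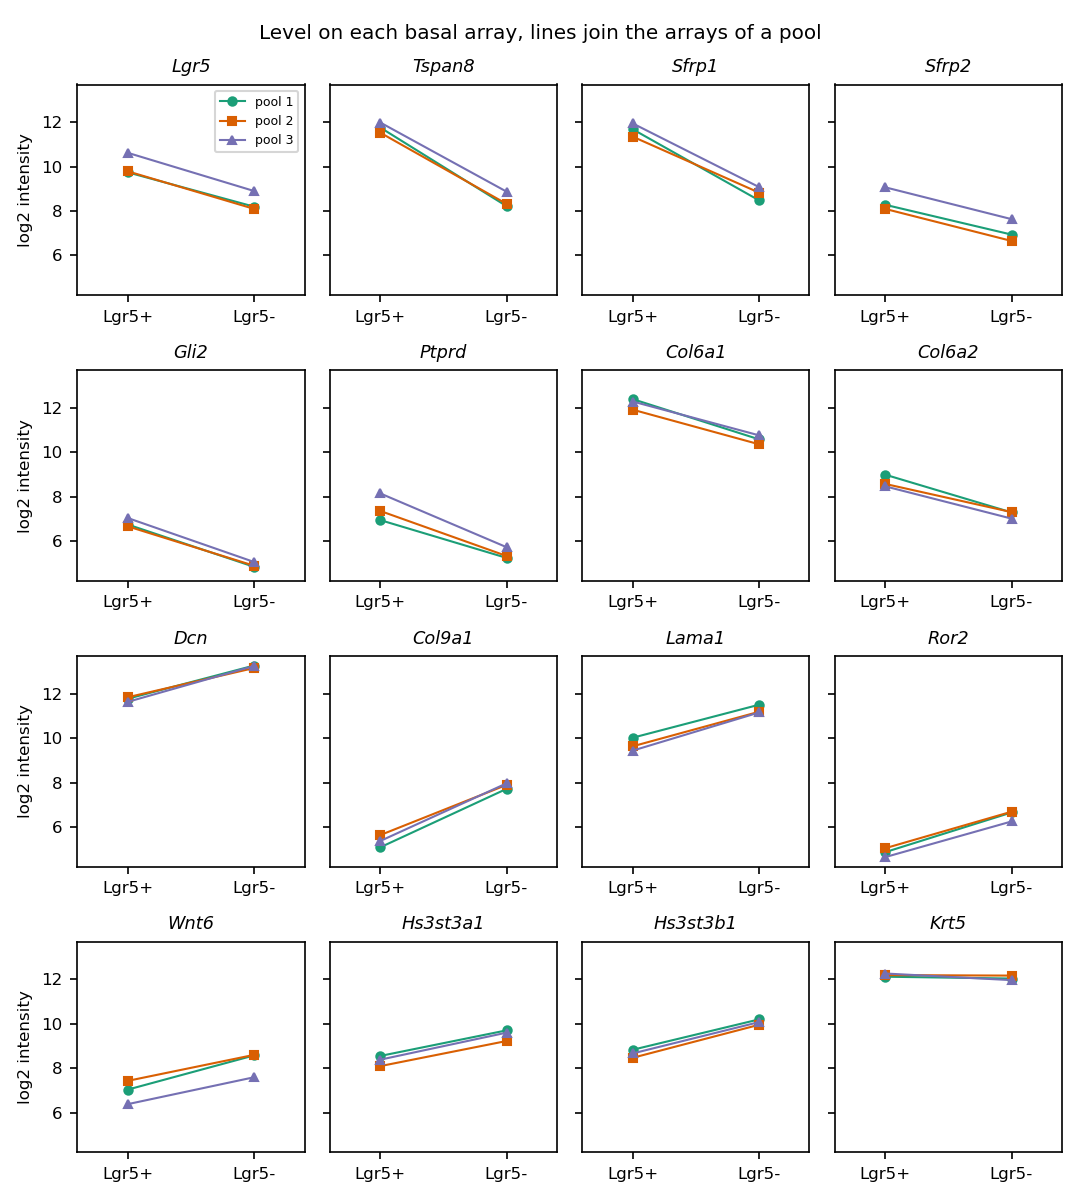
Normalized log2 intensity of 16 genes on each basal array, Lgr5+ on the left and Lgr5- on the right of every panel, with a line joining the 2 arrays of a pool. The lines of the first 8 genes fall toward Lgr5- in all 3 pools and those of Dcn, Col9a1, Lama1, Ror2, Wnt6, Hs3st3a1 and Hs3st3b1 climb, while those of Krt5, a basal keratin that did not pass, are nearly level.

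Gli2, the main transcriptional activator of the Hedgehog pathway, had 6.75, 6.67 and 7.04 on the Lgr5+ arrays and was detected on no Lgr5- array and no luminal array. It was at least 2.8-fold higher in Lgr5+ cells (adjusted p = 0.0279). Of 23 Hedgehog pathway genes, 13 were tested, with 1 higher, 0 lower and a median of 0.19, beside 0.02 for all genes. Scube3, a secreted protein of the pathway, was at 9.59, 9.24 and 9.36 on the Lgr5+ arrays, against 8.93, 8.55 and 8.57 on the Lgr5- arrays, and did not pass (log2 difference 0.72, adjusted p = 0.0682). Smo, the signal transducer, differed by 0.23 (adjusted p = 0.332), Ptch1, the receptor and a Hedgehog target, by 0.19 (adjusted p = 0.459) and Gli3 by 0.00 (adjusted p = 0.999).

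Other regulators of development moved in both directions. Tbx3, a T-box factor needed for the mammary bud in the embryo, had 9.43, 9.57 and 10.23 on the Lgr5+ arrays, against 8.38, 8.55 and 9.34 on the Lgr5- arrays. Its groups met closely, with pool 3 of the Lgr5- cells just under pool 1 of the Lgr5+ cells, and it rose by 0.99 in log2 (SE 0.104, adjusted p = 0.0457, and 0.193 without pool as a block). Another Tbx3 probe, at a much lower level, gave 0.43. Tbx3 was the 1 gene of 5 tested T-box factors that passed (15 listed, 1 higher, 0 lower, median 0.56), and Tbx2 had -1.51 without passing (adjusted p = 0.106). Creb5, a CREB family factor, rose by 1.05 (SE 0.106, adjusted p = 0.044, and 0.0927 without pool as a block), while another probe, near background, gave 0.22. Dlx3, a homeobox factor of ectodermal organs, fell to 6.39, 6.22 and 6.10 on the Lgr5+ arrays, against 7.47, 8.01 and 7.59 on the Lgr5- arrays (log2 difference -1.45, SE 0.166, adjusted p = 0.0488). Dlx3 was the 1 gene that passed among 37 tested of 93 Sox, Hox and other patterning factors (0 higher, median 0.10). Dlk2, a membrane protein related to Notch ligands, fell to 7.49, 7.12 and 7.16 on the Lgr5+ arrays, against 9.13, 8.60 and 8.47 on the Lgr5- arrays (log2 difference -1.48, SE 0.117, adjusted p = 0.0279). Of 29 Notch pathway genes, 20 were tested, with 0 higher, 1 lower and a median of 0.03, and Notch1 had 0.80 without passing (adjusted p = 0.0778).

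Promoters were searched for letters that Wnt and Hedgehog effectors are known to bind, since members of both pathways passed. RefSeq promoters, from 250 bases before to 50 bases after a start site in GRCm38.p6, were found for 67 of the 97 genes (29 higher and 38 lower). Those of Lgr5 and Sfrp1 were not in the table. Shown are the promoter of Tspan8, the gene with the largest difference, and promoters of Dclk1, Tnfrsf19 and Ror2, which hold a match. Capitals mark the Tcf/Lef letters CTTTGAT or their reverse complement ATCAAAG (Dclk1 at position -153 from the start site, Tnfrsf19 at -202) and the Gli letters CCACCCA or their reverse complement TGGGTGG (Ror2 at -245), and no match of one overlaps a match of the other here. Tspan8 lies at chr10:115817034-115817333 on the plus strand, Dclk1 at chr3:55242114-55242413 on the plus strand, Tnfrsf19 at chr14:61037938-61038237 on the minus strand and Ror2 at chr13:53286075-53286374 on the minus strand.
Tspan8: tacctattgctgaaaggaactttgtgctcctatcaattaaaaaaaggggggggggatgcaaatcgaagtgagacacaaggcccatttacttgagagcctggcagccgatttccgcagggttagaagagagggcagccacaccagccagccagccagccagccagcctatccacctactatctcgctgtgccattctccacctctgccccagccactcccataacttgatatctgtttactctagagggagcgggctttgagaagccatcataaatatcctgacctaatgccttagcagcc
Dclk1: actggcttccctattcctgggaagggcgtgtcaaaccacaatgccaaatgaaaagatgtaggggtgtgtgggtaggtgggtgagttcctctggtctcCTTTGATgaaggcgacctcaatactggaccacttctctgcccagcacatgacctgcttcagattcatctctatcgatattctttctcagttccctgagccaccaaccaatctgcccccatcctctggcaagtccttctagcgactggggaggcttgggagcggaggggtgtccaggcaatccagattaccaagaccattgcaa
Tnfrsf19: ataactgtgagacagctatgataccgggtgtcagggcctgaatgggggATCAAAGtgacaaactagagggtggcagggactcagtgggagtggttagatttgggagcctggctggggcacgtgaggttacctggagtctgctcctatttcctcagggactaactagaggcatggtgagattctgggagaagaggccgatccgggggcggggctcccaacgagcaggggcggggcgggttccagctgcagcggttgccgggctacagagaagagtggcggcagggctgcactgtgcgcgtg
Ror2: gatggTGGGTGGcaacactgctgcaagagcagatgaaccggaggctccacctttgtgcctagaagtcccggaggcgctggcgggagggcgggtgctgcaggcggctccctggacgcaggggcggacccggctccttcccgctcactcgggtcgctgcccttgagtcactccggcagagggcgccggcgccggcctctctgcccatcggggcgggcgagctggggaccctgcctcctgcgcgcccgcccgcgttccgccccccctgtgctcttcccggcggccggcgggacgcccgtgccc

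The Tcf/Lef letters stood in 1 of 39 promoters of genes that were higher (2.56%) and in 3 of 50 promoters of genes that were lower (6.0%), beside 2.48% of the promoters of tested genes and 3.73% of all promoters in the table. The Gli letters stood in 4 of 39 promoters of higher genes (10.3%) and in 4 of 50 of lower genes (8.0%), beside 9.6% of those of tested genes and 9.3% of all. Dclk1 and Tnfrsf19 each have 2 promoters in the table, and the match is in 1 of them. The printed Tspan8 promoter holds neither motif. These are matches of letters in a window and say nothing of binding.

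Genes of nerve cell adhesion leaned upward. Of 75 neuronal adhesion and synapse genes, 24 were tested, with 3 higher (Ptprd, Lrrtm1 and Cntnap4), 1 lower (Lamp5) and a median difference of 0.50, beside 0.02 for all genes, and 21 of the 24 were above 0. The median was 0.75 in pool 1, 0.44 in pool 2 and 0.35 in pool 3. Ptprd, a receptor tyrosine phosphatase that organises synapses, had 6.95, 7.36 and 8.15 on the Lgr5+ arrays, against 5.25, 5.34 and 5.73 on the Lgr5- arrays, of which 1 detected it (log2 difference 2.05, SE 0.166, adjusted p = 0.0279). The other 2 Ptprd probes gave 1.49 and 2.24. Lrrtm1, a synaptic adhesion protein with leucine-rich repeats, had 8.19, 7.56 and 8.68 on the Lgr5+ arrays, against 5.66, 5.99 and 6.87 on the Lgr5- arrays. Its groups were apart, but it spread widely within each and passed narrowly (log2 difference 1.97, SE 0.211, adjusted p = 0.0457, and 0.0743 without pool as a block). Cntnap4, a relative of the neurexins, rose by 1.22 (SE 0.136, adjusted p = 0.0471, and 0.0524 without pool as a block), while 1 of its 2 other probes, near background, gave -0.21.

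Some neuronal genes with differences as large did not pass. Cntn2, a contactin, had 9.59, 8.60 and 7.60 on the Lgr5+ arrays, against 6.21, 6.75 and 6.39 on the Lgr5- arrays (log2 difference 2.15, adjusted p = 0.103), so its excess was largest in pool 1 and smallest in pool 3. Lrrn2 had 1.45 (adjusted p = 0.092) and Nrcam 1.28 (adjusted p = 0.0543). In the other direction, Lamp5, a membrane protein of neurons related to lysosomal proteins, was detected on 1 Lgr5+ array and had 5.52, 5.58 and 4.52 there, against 8.94, 8.69 and 6.64 on the Lgr5- arrays. It had the largest fall of all genes that passed (log2 difference -2.89, SE 0.271, adjusted p = 0.0369, and 0.091 without pool as a block). Sncg, gamma-synuclein, rose by 1.23 (SE 0.108, adjusted p = 0.030, and 0.082 without pool as a block), Ngef, which acts downstream of Eph receptors, by 1.26 (SE 0.101, adjusted p = 0.0279) and Nkain2, which binds the sodium pump, by 0.93 (adjusted p = 0.049, and 0.0792 without pool as a block). Dclk1, a microtubule-binding kinase of migrating neurons and of intestinal tuft cells, had 7.77, 7.67 and 7.88 on the Lgr5+ arrays, against 6.13, 5.94 and 6.35 on the Lgr5- arrays. Each Lgr5+ array was well above every Lgr5- array (log2 difference 1.64, SE 0.106, adjusted p = 0.0279). Reln, the secreted guidance protein reelin, fell to 11.64, 11.43 and 11.10 on the Lgr5+ arrays, against 12.69, 12.49 and 12.002 on the Lgr5- arrays (log2 difference -1.001, SE 0.105, adjusted p = 0.0456, and 0.11 without pool as a block). Adam23, an adhesion protein of neurons without protease activity, fell by 1.14 (adjusted p = 0.0385, and 0.137 without pool as a block), and 1 Lgr5+ array detected it.

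Collagen genes moved in both directions. Of 41 collagen chain genes, 24 were tested, with 2 higher (Col6a1 and Col6a2), 1 lower (Col9a1) and a median of 0.05. Col6a1, a chain of the beaded-filament collagen VI, had 12.39, 11.92 and 12.29 on the Lgr5+ arrays, against 10.59, 10.36 and 10.77 on the Lgr5- arrays (log2 difference 1.63, SE 0.115, adjusted p = 0.0279), and 2 other probes gave 1.49 and 1.25. Col6a2, its partner chain, had 8.99, 8.58 and 8.47 on the Lgr5+ arrays, against 7.30, 7.31 and 7.02 on the Lgr5- arrays (log2 difference 1.47, SE 0.127, adjusted p = 0.030). The genes of these chains are direct neighbours on chromosome 10. The third chain, Col6a3, whose gene is elsewhere, had 8.40, 8.88 and 8.52 on the Lgr5+ arrays, against 8.65, 8.54 and 8.63 on the Lgr5- arrays, with overlapping groups (log2 difference -0.01, adjusted p = 0.972). Col9a1, a chain of a cartilage collagen, had 5.09, 5.64 and 5.37 on the Lgr5+ arrays, 2 of which detected it, against 7.71, 7.89 and 7.96 on the Lgr5- arrays. Its difference, -2.49 (SE 0.125, adjusted p = 0.0279), was among the largest falls, and Col9a2 had -0.03 (adjusted p = 0.903). Col4a1 and Col4a2, the chains of basement membrane collagen IV, had -0.70 (adjusted p = 0.0778) and -0.61 (adjusted p = 0.0883). Col20a1, outside the list, was detected on no Lgr5+ array and lay lower by at least 1.45-fold (adjusted p = 0.044).

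Of 40 laminin, nidogen and integrin genes, 28 were tested, with 0 higher, 2 lower and a median of -0.01. Lama1, a laminin alpha chain of early and epithelial basement membranes, fell to 10.02, 9.63 and 9.44 on the Lgr5+ arrays, against 11.50, 11.18 and 11.15 on the Lgr5- arrays (log2 difference -1.58, SE 0.109, adjusted p = 0.0279). Lamc3, a gamma chain, was detected on no Lgr5+ array, so that it was lower by at least 1.86-fold (adjusted p = 0.0385, with 0.0636 if pool is not a block). The integrin genes Itga6 and Itgb1 had -0.02 (adjusted p = 0.924) and 0.05 (adjusted p = 0.885).

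Of 41 proteoglycan genes, 23 were tested, with 0 higher, 3 lower and a median of 0.09. Dcn, decorin, which coats collagen fibrils, had 11.77, 11.84 and 11.63 on the Lgr5+ arrays, against 13.26, 13.15 and 13.24 on the Lgr5- arrays. The arrays of each group differed little from each other and the groups by 1.47 in log2, a fall of 2.78-fold (SE 0.114, adjusted p = 0.0279), which the omission of the background correction left at -1.43. Spock3, a testican, had 7.11, 7.44 and 6.96 on the Lgr5- arrays, was detected on no Lgr5+ array and was at least 3.34-fold lower (adjusted p = 0.0456). Esm1, endocan, a secreted proteoglycan best known from endothelium, had 4.72, 6.08 and 5.75 on the Lgr5+ arrays, 2 of which detected it, against 7.78, 8.18 and 8.21 on the Lgr5- arrays (log2 difference -2.54, SE 0.205, adjusted p = 0.0279).

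Esm1 is also an endothelial marker, and those markers varied between the Lgr5+ arrays. Of 19 listed endothelial genes, 15 were tested, with 0 higher, 1 lower (Esm1) and a median of -0.11, and 13, 16 and 14 were detected on the Lgr5+ arrays of pools 1, 2 and 3, against 15 on each Lgr5- array. Their summed intensity ran from 2344 to 9797 on the Lgr5+ arrays, against 4951 to 6138 on the Lgr5- arrays, with Lgr5+ pool 2 the highest of all and Lgr5+ pool 3 the lowest. Kdr and Apln were not detected on any array. Esm1 was lower in Lgr5+ cells in each pool, with log2 differences of -3.06, -2.11 and -2.45, and the median difference of the tested endothelial markers was -0.40, 0.77 and -0.93 in pools 1, 2 and 3. Plvap, a protein of fenestrated endothelium, had 8.92, 10.66 and 8.16 on the Lgr5+ arrays, against 10.71, 10.51 and 10.09 on the Lgr5- arrays (log2 difference -1.19, adjusted p = 0.205), lower in pools 1 and 3 and nearly level in pool 2. The part of endothelial RNA in the Esm1 result was not tested.

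Enzymes that sulfate heparan chains, which some of these core proteins carry, were also among the genes that fell. Of 49 genes for building and sulfating glycosaminoglycans, 33 were tested, with 0 higher, 3 lower and a median of 0.12. Hs3st3b1 had 8.83, 8.47 and 8.67 on the Lgr5+ arrays, against 10.20, 9.96 and 10.08 on the Lgr5- arrays (log2 difference -1.42, SE 0.102, adjusted p = 0.0279). Hs3st3a1 had 8.56, 8.10 and 8.39 on the Lgr5+ arrays, against 9.71, 9.23 and 9.60 on the Lgr5- arrays (log2 difference -1.17, SE 0.101, adjusted p = 0.030). Both encode 3-O-sulfotransferases with nearly identical catalytic domains, so a probe could read both transcripts, which was not tested, and 1 further Hs3st3b1 probe, near background, gave 0.13. They lie on chromosome 11 with 1 protein-coding gene, Cox10, between them, which had -0.21 (adjusted p = 0.35). Hs6st2, a 6-O-sulfotransferase, had 7.93, 8.05 and 8.29 on the Lgr5+ arrays, against 8.88, 8.93 and 9.33 on the Lgr5- arrays (log2 difference -0.96, SE 0.104, adjusted p = 0.0457, and 0.0644 without pool as a block). Hs6st1, of the same activity, had 0.65 (adjusted p = 0.0851) and the sulfatase Sulf1 0.71 (adjusted p = 0.0958), and neither passed.

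Of 62 matricellular, elastic and glycoprotein matrix genes, 37 were tested, with 0 higher, 1 lower (Ccn4) and a median of 0.08. Of 69 matrix proteases and inhibitors, 42 were tested, with 1 higher, 1 lower and a median of 0.12. Adamts2, which trims procollagen, had 10.78, 10.72 and 11.20 on the Lgr5+ arrays, against 9.66, 9.79 and 10.21 on the Lgr5- arrays (log2 difference 1.01, SE 0.105, adjusted p = 0.0456, and 0.0845 without pool as a block). Adamts9, which cuts versican, fell by 1.14 (SE 0.119, adjusted p = 0.0456, and 0.0515 without pool as a block). Pcsk6, a convertase that matures secreted precursors, fell to 6.08, 6.17 and 5.84 on the Lgr5+ arrays, against 7.59, 7.84 and 7.42 on the Lgr5- arrays (log2 difference -1.58, SE 0.104, adjusted p = 0.0279). Mxra8, an adhesion protein of the immunoglobulin superfamily, rose by 1.503 (SE 0.100, adjusted p = 0.0279), and Ptx3, a long pentraxin of innate defence that stabilises hyaluronan matrix, rose to 10.91, 10.29 and 10.89 on the Lgr5+ arrays, against 9.69, 8.79 and 9.43 on the Lgr5- arrays (log2 difference 1.39, SE 0.114, adjusted p = 0.0279, and 0.0807 without pool as a block). Galnt16, an enzyme of O-glycosylation, rose by 1.13 (adjusted p = 0.049, and 0.0731 without pool as a block).

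Several other genes that passed act in the cytoskeleton, in junctions or in membrane traffic. Myo5b, a motor that carries recycling endosomes, had 7.70, 7.30 and 7.68 on the Lgr5+ arrays, against 5.69, 5.58 and 6.15 on the Lgr5- arrays (log2 difference 1.75, SE 0.134, adjusted p = 0.0279). It was the 1 gene that passed among 26 tested of 45 recycling and exocytosis genes (1 higher, 0 lower, median 0.04), and its level on the luminal arrays, 7.98 to 8.42, was higher still. Flnc, an actin crosslinker of muscle, had 11.84, 10.94 and 10.64 on the Lgr5+ arrays, against 9.91, 9.66 and 9.37 on the Lgr5- arrays (log2 difference 1.49, SE 0.172, adjusted p = 0.0489, and 0.091 without pool as a block). Iqgap2, a scaffold protein of the actin cytoskeleton, had 8.28, 8.45 and 8.19 on the Lgr5+ arrays, against 6.99, 7.03 and 6.98 on the Lgr5- arrays, and the Lgr5- arrays lay within 0.1 of each other (log2 difference 1.31, SE 0.107, adjusted p = 0.0279). Esyt3, which tethers the endoplasmic reticulum to the cell membrane, rose by 1.31 (adjusted p = 0.0279), Clip4, a microtubule-binding protein, by 1.28 (adjusted p = 0.041, and 0.0524 without pool as a block) and Ppl, periplakin, a linker of desmosomes and keratin, by 1.19 (adjusted p = 0.0456). Shtn1, shootin, which couples actin flow to adhesion in growing axons, was detected on no Lgr5- array and was at least 1.62-fold higher (adjusted p = 0.030).

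Dnah1, an axonemal dynein, rose by 1.04 (adjusted p = 0.0456), Dennd2a, an activator of a Rab protein, by 0.93 (adjusted p = 0.0488, and 0.0523 without pool as a block) and Ildr1, a protein of tricellular junctions, by 0.91 (adjusted p = 0.0471, and 0.168 without pool as a block). Capn6, a calpain without protease activity that stabilises microtubules, fell to 9.02, 8.49 and 7.82 on the Lgr5+ arrays, against 10.91, 10.26 and 9.34 on the Lgr5- arrays. Both groups were highest in pool 1 and lowest in pool 3, while the difference within pools lay between -1.89 and -1.52 (log2 difference -1.72, SE 0.122, adjusted p = 0.0279, and 0.138 without pool as a block).

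Several genes of peptide and G protein signalling fell in Lgr5+ cells. Uts2b, a peptide hormone related to urotensin, had 6.03, 5.71 and 6.13 on the Lgr5+ arrays, against 7.82, 8.28 and 8.44 on the Lgr5- arrays (log2 difference -2.23, SE 0.179, adjusted p = 0.0279). Ramp1, a partner of the receptor for calcitonin gene-related peptide, had 7.87, 8.72 and 7.22 on the Lgr5+ arrays, against 9.11, 9.83 and 8.39 on the Lgr5- arrays. Its groups overlapped, since the pools differed more than the populations, and it passed only within pools (log2 difference -1.17, SE 0.102, adjusted p = 0.030, and 0.272 without pool as a block). Of 96 peptide hormone and G protein-coupled receptor genes, 34 were tested, with 0 higher, 2 lower and a median of 0.01. Gnai1, an inhibitory G protein subunit, fell by 1.35 (SE 0.121, adjusted p = 0.0315), and Hpcal4, a neuronal calcium sensor, by 1.29 (SE 0.112, adjusted p = 0.030). Ackr4, which takes up chemokines without signalling, fell by 1.11 (adjusted p = 0.0461, and 0.082 without pool as a block), the 1 gene that passed of 33 tested among 53 chemokine and cytokine genes (0 higher, median 0.16).

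Trpc1, a cation channel, rose by 1.14 (SE 0.127, adjusted p = 0.0471), while Kcnmb1, the smooth muscle subunit of the BK potassium channel, fell to 7.39, 7.78 and 8.06 on the Lgr5+ arrays, against 8.58, 8.70 and 9.07 on the Lgr5- arrays (log2 difference -1.04, SE 0.112, adjusted p = 0.0457, and 0.089 without pool as a block). They were the 1 higher and 1 lower of 44 tested among 141 ion channel genes (median 0.09). Traf1, an adaptor of TNF receptors, was detected on no Lgr5- array and was at least 2.1-fold higher (adjusted p = 0.0457). Of 39 TNF ligand and receptor genes, 19 were tested, with 0 higher, 1 lower (Tnfrsf19) and a median of -0.17. Arhgap20 fell by 0.91 (adjusted p = 0.0488, and 0.103 without pool as a block), the 1 gene that passed of 46 tested among 72 protein kinase C and Ras regulators (0 higher, median 0.09).

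Among metabolic genes 2 of those named rose and the others fell. Pygl, the liver glycogen phosphorylase, had 8.82, 8.96 and 9.07 on the Lgr5+ arrays, against 6.81, 7.38 and 7.40 on the Lgr5- arrays (log2 difference 1.75, SE 0.131, adjusted p = 0.0279). It was the 1 gene that passed of 30 tested among 46 genes of glycogen and glucose metabolism (0 lower, median -0.09). Akr1b8, an aldo-keto reductase, rose by 1.02 (adjusted p = 0.0456), the 1 gene that passed of 47 tested among 82 drug-metabolism genes (0 lower, median -0.12). Abcg5, which exports plant sterols with its partner Abcg8, fell to 6.27, 6.14 and 6.61 on the Lgr5+ arrays, against 7.996, 8.26 and 8.27 on the Lgr5- arrays (log2 difference -1.83, SE 0.135, adjusted p = 0.0279). Maob, monoamine oxidase B, fell by 1.52 (SE 0.164, adjusted p = 0.0457), Upb1, of pyrimidine breakdown, by 1.55 (adjusted p = 0.030, and 0.082 without pool as a block) and Tcn2, the vitamin B12 carrier, by 1.31 (adjusted p = 0.0471). Gpx2, a glutathione peroxidase, fell by 1.35 with overlapping groups (adjusted p = 0.0489, and 0.231 without pool as a block). Egln3, an oxygen-sensing hydroxylase, fell by 1.04 (adjusted p = 0.044), Pdk4, which switches off pyruvate dehydrogenase, by 0.96 (adjusted p = 0.0458) and Ckb, brain creatine kinase, by 0.96 (adjusted p = 0.0481). Apoc1, an apolipoprotein, fell by 0.98 (adjusted p = 0.0456, and 0.127 without pool as a block) and Slc25a42, a mitochondrial coenzyme A carrier, by 0.90 (adjusted p = 0.0488, and 0.078 without pool as a block).

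Several genes that passed have no role assigned here. Tex36 fell to 6.14, 5.75 and 5.68 on the Lgr5+ arrays, against 8.40, 8.63 and 7.94 on the Lgr5- arrays (log2 difference -2.47, SE 0.166, adjusted p = 0.0279). Lbhd2 fell to 6.03, 5.98 and 5.69 on the Lgr5+ arrays, against 8.64, 8.04 and 7.48 on the Lgr5- arrays (log2 difference -2.15, SE 0.185, adjusted p = 0.030). Both were well apart between the groups. Catsperz, a protein of the sperm calcium channel, fell by 1.15 (adjusted p = 0.0457, and 0.0504 without pool as a block), and Ccdc115, an assembly factor of the vesicle proton pump, by 0.99 with overlapping groups (adjusted p = 0.044, and 0.264 without pool as a block, 1 Lgr5+ array detecting it). Medag rose by 1.12 (adjusted p = 0.0491, and 0.124 without pool as a block) and Riiad1 by 1.16 (adjusted p = 0.0457). Snhg11, a noncoding host gene of small nucleolar RNAs, was detected on no Lgr5- array and was at least 2.17-fold higher (adjusted p = 0.0457), on a probe that the authors had set aside. A probe that the file names DBC1, a name shared by different genes, gave a difference of 1.62 (SE 0.142, adjusted p = 0.030). Clone or predicted-gene names stood for 12 of the 97.

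**Figure D3:**
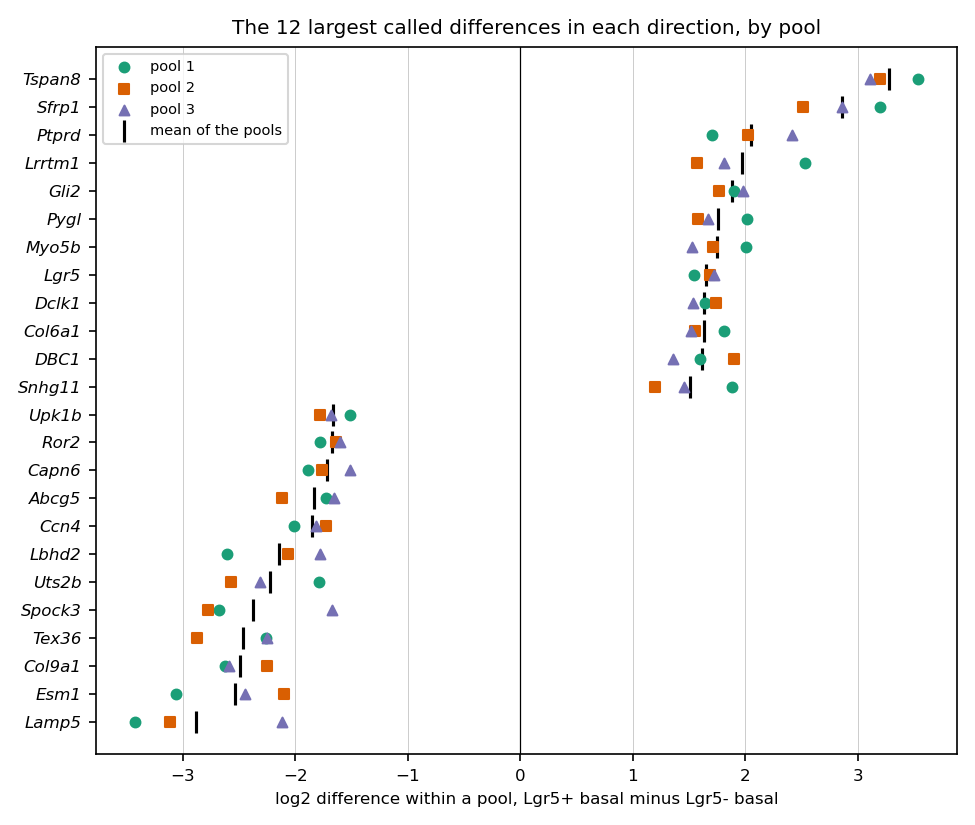
The log2 difference within each pool (horizontal axis, Lgr5+ basal minus Lgr5- basal) of the 12 genes with the largest differences that passed in each direction, clone names left out, with a black bar at the mean of the pools. Every point lies on the side of its mean, and the points of Lgr5, Dclk1 and Ror2 lie close together while those of Lamp5, Spock3 and Lrrtm1 are spread by about 1 on the log2 scale.

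The SD of the difference over all genes was 0.601 in pool 1, 0.482 in pool 2 and 0.333 in pool 3. The paired test favours genes whose differences are alike between pools, so nothing is read from their likeness. Genes that passed as higher had a median difference of 1.35, 1.26 and 1.29 in pools 1, 2 and 3, and genes that passed as lower one of -1.42, -1.23 and -1.28. Pool 1 gave the largest size for 51 of the 97 genes, pool 2 for 25 and pool 3 for 21. Other probes of the same gene were kept for 31 of the 97, and 40 of these 43 probes had the sign of the probe used. The exceptions were 1 probe each of Cntnap4, Hs3st3b1 and Ildr1, with differences of -0.21, 0.13 and -0.17.

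Genes of the cell cycle leaned downward, to a different degree in each pool. Of 56 genes, 44 were tested, with 0 higher, 1 lower (Ccnd2), a median of -0.42 beside 0.02 for all genes, and 6 of the 44 above 0. The median was -0.82 in pool 1, -0.36 in pool 2 and -0.06 in pool 3. Ccnd2, the G1 cyclin D2, had 9.55, 9.34 and 9.65 on the Lgr5+ arrays, against 11.14, 10.38 and 10.95 on the Lgr5- arrays (log2 difference -1.31, SE 0.143, adjusted p = 0.0459). Its groups were apart in every pool, and 2 other probes gave -0.81 and -1.27. Mki67, a marker of cycling cells, had 8.43, 8.24 and 8.16 on the Lgr5+ arrays, against 9.24, 8.57 and 8.14 on the Lgr5- arrays, with pool 3 level (log2 difference -0.37, adjusted p = 0.29). Top2a had -0.70 (adjusted p = 0.246) and Ccnd1 -0.32 (adjusted p = 0.325).

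In 13 lists no gene passed in this limma fit, with the count at an unadjusted p under 0.05 given for each. Over all 11504 genes 2630 had an unadjusted p under 0.05 and 0.843% passed, so a list with none that passed says little about its genes. Among growth factor lists these were fibroblast growth factors and receptors (11 tested, 2 at an unadjusted p under 0.05, median 0.06), ErbB receptors and ligands (9 tested, 5, median -0.19), the insulin-like growth factor axis (14 tested, 5, median 0.08) and the TGF-beta, BMP and activin pathway (31 tested, 16, median 0.09). Their members with the smallest p were the inhibitor Spry4 at -0.76 (adjusted p = 0.0736), the ErbB ligand Nrg1 at -0.52 (adjusted p = 0.101), Igfbp4 and the activin-binding protein Fst at -0.89 (adjusted p = 0.0695). Axon guidance genes had a median of 0.04 (42 tested, 13 at an unadjusted p under 0.05), with Sema3f at 0.79 (adjusted p = 0.062). Basal and mesenchymal transition factors had a median of 0.09 (23 tested, 5 at an unadjusted p under 0.05), with Bcl11a at 0.70 (adjusted p = 0.0787).

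Retinoid genes had a median of 0.00 (17 tested, 5 at an unadjusted p under 0.05). Aldh1a1 makes retinoic acid and is also on the list of reported mammary stem cell markers. Its level was 4.95, 5.67 and 5.51 on the Lgr5+ arrays, against 7.995, 7.89 and 6.91 on the Lgr5- arrays. The groups did not overlap and the log2 difference was -2.22, but it did not pass within pools (SE 0.321, adjusted p = 0.0686, and 0.032 without pool as a block). Aldh1a7, a near copy whose transcript the probe may share, had the smallest p of the list (adjusted p = 0.0676). Amino acid response and serine synthesis genes had a median of -0.05 (27 tested, 9 at an unadjusted p under 0.05), with Psat1, of serine synthesis, at -1.80 (adjusted p = 0.0513, and 0.0131 without pool as a block). Lipid metabolism genes (45 tested, 11, median -0.03) had Cyp51 at -0.73 (adjusted p = 0.11), hormone receptors and coregulators (19 tested, 1, median -0.01) had Nr1d1 at 0.41 (adjusted p = 0.181), and interferon genes (26 tested, 1, median 0.08) had Mx2 at 0.58 (adjusted p = 0.137). Immediate-early and stress genes, which can rise while tissue is taken apart, had a median of 0.13 (32 tested, 10 at an unadjusted p under 0.05, 27 above 0), with Egr4 at -1.25 (adjusted p = 0.0573).

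Complement factors had a median of 0.26 (14 tested, 7 at an unadjusted p under 0.05). Cfd, the protease adipsin made mainly by adipocytes, had 8.08, 8.86 and 6.34 on the Lgr5+ arrays and was detected on no Lgr5- array. Over the group it was at least 5.36-fold higher but did not pass (adjusted p = 0.0816, and 0.072 without pool as a block). Its level was lowest in pool 3, where the log2 difference was 1.59, against 3.25 in pool 1 and 4.11 in pool 2. Of 12 adipocyte markers, 2 were tested and 0 passed, 2 or 3 were detected on each Lgr5+ array, against 1 or 2 on each Lgr5- array, and their summed intensity was 440 to 940 on the Lgr5+ arrays, against 426 to 605 on the Lgr5- arrays. Adipoq had 5.72, 6.13 and 4.50 on the Lgr5+ arrays, 2 of which detected it, and no Lgr5- array did, while Plin1 was not detected on any array. Lep, the fat cell hormone leptin and the other marker tested beside Cfd, had 5.86, 7.22 and 6.73 on the Lgr5+ arrays, against 7.002, 7.61 and 8.25 on the Lgr5- arrays, lower in each pool with overlapping groups (log2 difference -1.02, adjusted p = 0.121). The part of fat cell RNA in the Cfd level was not tested.

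**Figure D4:**
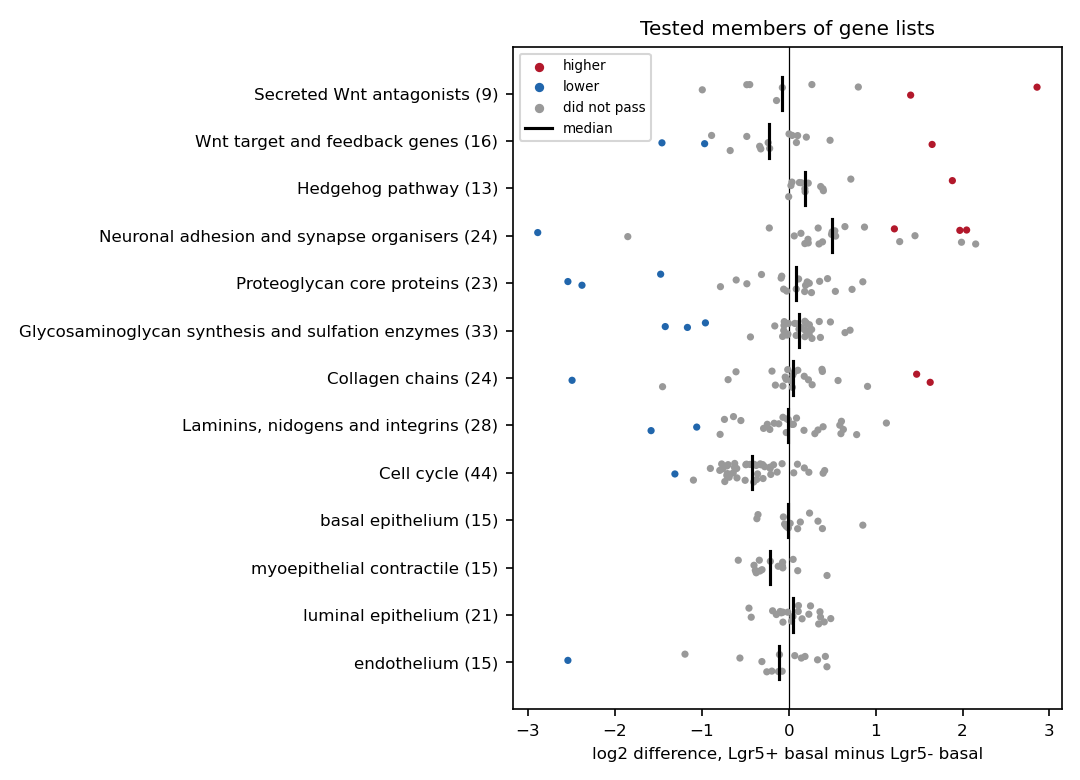
The log2 difference (horizontal axis, Lgr5+ basal minus Lgr5- basal) of each tested member of 13 gene lists, 1 list to a row with the number tested in brackets, coloured by whether the gene passed as higher, as lower or not at all, with a black line at the median. The neuronal adhesion list is shifted to the right (median 0.50) and the cell cycle list to the left (median -0.42), while the basal, contractile and luminal marker lists, with medians of 0.00, -0.21 and 0.05, hold no gene that passed.

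Of the markers of the basal layer 15 were detected on each basal array, and none passed. Of 16 basal epithelial markers, 15 were tested and 0 passed in limma (3 at an unadjusted p under 0.05, median 0.00). Krt5 had 12.12, 12.19 and 12.26 on the Lgr5+ arrays, against 12.04, 12.17 and 11.97 on the Lgr5- arrays (log2 difference 0.13, SE 0.113, adjusted p = 0.505). Krt14 differed by -0.04 (SE 0.127, adjusted p = 0.889) and Trp63, the transcription factor of basal cells, by -0.06 (SE 0.114, adjusted p = 0.775). Krt14, at 14.415 to 14.792 on the basal arrays, and the contractile marker Acta2, at 14.489 to 14.689, lay near 14.94, the highest level on each array. So near the top a difference could be hidden, which was not tested. Of 15 tested contractile markers, 0 passed (4 at an unadjusted p under 0.05) and 3 lay above 0, with a median of -0.21 overall and of -0.06, -0.20 and -0.14 in pools 1, 2 and 3, and with Acta2 at -0.07 (SE 0.107, adjusted p = 0.727) and Actg2 at -0.58 (adjusted p = 0.115). Of 21 tested luminal markers, 0 passed (2 at an unadjusted p under 0.05, median 0.05), with Krt8 at 0.11 (adjusted p = 0.56) and Krt18 at 0.25 (adjusted p = 0.30). The summed luminal marker intensity was 16194 to 22093 on the Lgr5+ arrays and 16775 to 17168 on the Lgr5- arrays, against 179382 to 187884 on the luminal arrays. Of 28 reported mammary stem cell markers, 24 were tested, with 2 higher (Lgr5 and Tspan8), 0 lower and a median of -0.03, and Procr was detected on too few arrays for a test. The reporter of Lgr5 was used for the sort, so its count here tells nothing new. Aldh1a1, at -2.22, had the lowest difference of this list and did not pass.

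Markers of other cell types that a basal sort could hold did not pass either, apart from Esm1. With 0.843% of all genes passing, this says little of so few markers, here or above. In limma 0 of 13 tested fibroblast markers passed (3 at an unadjusted p under 0.05, median 0.07), as did 0 of 8 pericyte markers (1, median 0.06), 0 of 5 haematopoietic markers (2, median 0.18), 0 of 3 erythroid markers (0, median 0.80) and 0 of 8 Schwann cell markers (3, median -0.06). The summed fibroblast marker intensity was 4160 to 4775 on the Lgr5+ arrays, against 3523 to 4554 on the Lgr5- arrays, beside 810 to 1017 on the luminal arrays. Pdgfra, a fibroblast marker, had 8.17, 7.79 and 7.94 on the Lgr5+ arrays, against 7.92, 7.60 and 8.07 on the Lgr5- arrays, with overlapping groups. The erythroid markers had a median level of 8.64, 8.92 and 5.70 on the Lgr5+ arrays, against 6.72, 7.56 and 6.01 on the Lgr5- arrays. Ptprc, carried by nearly all white blood cells, and Cd3g, of T cells, were not detected on any array. Cd3e, also of T cells, had 6.58, 6.54 and 6.24 on the Lgr5+ arrays, against 7.50, 7.18 and 7.33 on the Lgr5- arrays (log2 difference -0.88, adjusted p = 0.070). Of the other 4 tested haematopoietic markers, Laptm5 had a log2 difference of 0.83 (adjusted p = 0.218), Cd68 of 0.34 (adjusted p = 0.364), Cd14 of 0.18 (adjusted p = 0.715) and Lyz2 of -0.45 (adjusted p = 0.388).

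**Figure D5:**
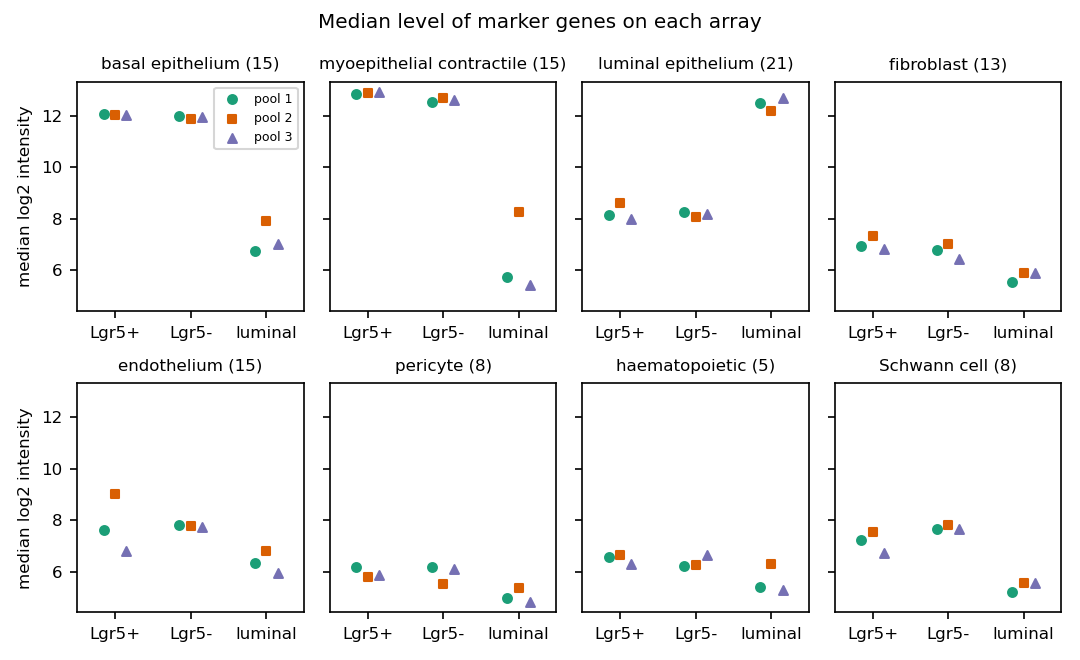
Median normalized log2 intensity of the tested markers of 8 cell types on each array (vertical axis), Lgr5+ basal, Lgr5- basal and luminal from left to right, with a symbol for each pool. The basal and contractile medians lie between 11.89 and 12.93 on the basal arrays, the luminal median lies between 12.17 and 12.68 on the luminal arrays and between 7.98 and 8.62 on the basal ones, and the endothelial median lies between 6.80 and 9.01 within the Lgr5+ group. The contractile median is higher on the Lgr5+ arrays (12.859 to 12.93, against 12.555 to 12.687), although the median of the differences of its genes was -0.21.

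Many of the 97 genes were not detected in luminal cells. Of the higher genes, 23 were detected on all 3 luminal arrays and 13 on none, and of the lower genes 18 on all and 24 on none, beside 82.6% and 8.28% of all tested genes. Sfrp1, Lgr5, Lrrtm1, Gli2 and Col6a2 were among the higher genes that no luminal array detected, and Uts2b, Wnt6, Spock3, Tex36 and Abcg5 among the lower ones. Others were well expressed there. Tspan8 had 9.60, 10.01 and 10.14 on the luminal arrays, between its levels on the Lgr5+ and the Lgr5- arrays, and Iqgap2 had 9.43 to 9.47, above both. Ror2, under detection in Lgr5+ cells, had 7.44, 7.59 and 7.71 on the luminal arrays. A pair of further genes that passed lie close together, Lbhd2 and Ckb on chromosome 12 with 5 protein-coding genes between them, both lower in Lgr5+ cells, and among 86 genes that passed and could be placed these were all the pairs with at most 9 protein-coding genes between them, besides Lgr5 and Tspan8, Col6a1 and Col6a2, and Hs3st3a1 and Hs3st3b1.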

How the data were processed

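Illumina mouse BeadChips had been hybridised with amplified RNA of 9 sorted samples, and the 6 basal arrays were compared. GenomeStudio and limma are the tools that the submitters' processing notes name, without versions. In the deposited raw table the authors gave linear intensity values, neither background-corrected nor normalized. Its detection columns held a deposited fraction that rose with signal, so 1 minus that fraction served as detection p. Per the file headers, a further column marks probes left out for lack of expression or poor annotation (26391 of 45281). A second deposited table held the authors' log2 values.

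Intensities were corrected by normexp in limma 3.58.1 (R 4.3.3; negative controls inferred from detection p, offset 16), quantile normalized over 9 arrays and log2-transformed, which came within 0.043 of the authors' log2 values. Of the probes, 27400 matched a RefSeq symbol, 8300 a synonym and 9581 neither. Kept were the 16581 probes that at least 3 of the 6 basal arrays detected (p under 0.01). The one with the highest basal mean stood for a gene, which gave 11504 genes, 3632 with several kept probes and 823 on probes that the authors set aside. Mean raw intensity was 430.3 to 654.4 on the Lgr5+ arrays and 437.7 to 631.6 on the Lgr5- arrays. Precision is limited by having 3 arrays in a group. No column lacked a sample.

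A linear model with population and pool was fitted to the 6 basal arrays (limma lmFit and eBayes, two-sided, 2 residual and 2.86 prior degrees of freedom), with Benjamini-Hochberg adjustment over all genes and a threshold of 0.05. Pool numbers come from the labels, and residuals of same-numbered arrays correlated with r of 0.36, 0.25 and 0.46. A gene is said to be at least N-fold changed where no array of its lower group detected it. The bound holds for background-corrected values and is not a minimum under other processing. Without that correction the log2 difference was 0.55 for Gli2, against 1.88 with it, and -0.77 for Spock3, against -2.38 with it. The steps were tested on simulated data. Alternatives were other blocks, all 9 arrays, the authors' values, other corrections, filters and probe rules, and omission of pools or arrays.

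The comparison, the 39 gene lists (1749 genes, 974 tested) and the 10 marker lists were chosen with earlier results of these data known. Genes named are the 12 largest differences that passed in each direction without clone names, all list members that passed, the member with the smallest p in lists with none, other genes past the threshold by at least 2-fold, and 14 landmarks such as Lgr5, Krt5 and Axin2. One gene that this rule names is not reported here. Other genes, such as Col6a3, Fzd7 or Cntn2, were chosen after their values were seen.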

Additional observations from a re-analysis of the deposited data

How the results depend on the processing

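All 97 genes kept their direction in every alternative in which they were tested. Other blocks, the use of all 9 arrays and the trend leave the differences as they are, and all 97 had the same sign in all 3 pools. Those alternatives and the omission of a pool could therefore not change a direction. The count of genes that passed was 170 with all 9 arrays and pool as a replicate block (77 of the 97 among them), 197 with BeadChip as a block in place of pool (89), 558 with no background correction (92), 229 with median centring (97), 50 with no filter on dim probes (50, of 28894 genes tested) and 778 with an intensity trend in eBayes (97). The share of higher genes was 44.3%, and it became 56.3% with no background correction, 57.6% with median centring and 56.2% with the trend. With no replicate block 99 passed (56 of the 97), with all 9 arrays and no replicate block 128 (59), with the authors' log2 values 82 (82), with detection on 3 of all 9 arrays 78 (78), with the probes the authors kept 118 (94) and with the mean of a gene's probes 104 (88). Leaving out a replicate, a pool in both groups, gave 0 to 826 genes. The smallest adjusted p was 0.14 without pool 1 and 0.226 without pool 2, where 1 residual degree of freedom was left. Without pool 3 the arrays are those of the first BeadChip, and pool 3 alone on the other could not be fitted.

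Leaving out single arrays with no replicate block, chosen after seeing the data, gave 0 to 629 genes: 9 without the Lgr5+ array of pool 1, 3 without that of pool 2 and 629 without that of pool 3, and 5, 0 (1225 at an unadjusted p under 0.05 in limma) and 47 without the Lgr5- arrays of pools 1, 2 and 3. The causes were not tested. Of the values of named genes, 1546 kept direction and side of the threshold, 858 no longer passed, 62 passed newly and 9 changed sign. Krt14 lay between -0.099 and 0.087 when a pool was left out, the highest without pool 2, and with no replicate block it became 0.042 without the Lgr5+ array of pool 2, 0.012 without the Lgr5- array of pool 1 and 0.01 without that of pool 2. Trp63 lay between -0.144 and 0.006 (without pool 2), and was 0.006 with no replicate block and without the Lgr5+ array of pool 2. Axin2 lay between -0.09 (without pool 3) and 0.072, and with no replicate block it was -0.024 without the Lgr5+ and -0.062 without the Lgr5- array of pool 3. With no background correction Traf1, Shtn1, Lamc3, Col20a1 and Ccdc115 no longer passed, and the cause was not tested.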
